A study of Mus musculus with 5 samples.

Results

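The genes described here are 7 matrix metalloproteinases (MMPs), Mmp2, Mmp3, Mmp9, Mmp12, Mmp13, Mmp14 and Mmp19, and 3 tissue inhibitors of metalloproteinases (TIMPs), Timp1, Timp2 and Timp3. They were taken by mouse symbol, and all 10 were found among the 55573 genes of the count tables. RNA came from the right hemisphere of C57BL/6 females that carried GL261 tumors. GL261 is a mouse glioma line, here transduced with a luciferase/mKate2 vector and inoculated into the right caudate nucleus-putamen at 7 to 8 weeks of age. The vehicle group (3 libraries) received a pH 6.5 dilution buffer. The UMBO group (2 libraries) received ultrasound-mediated blood-brain barrier opening, in which pulsed low-intensity ultrasound is applied just after an intravenous injection of microbubbles. Sessions were on days 21 and 24, and brains were taken 24 h after the second session. Each library came from 1 mouse and held 59736771 to 86164159 counted reads. It is bulk RNA, so tumor, brain, vessel and immune cells all contribute, and more cells of a type cannot be told apart from more RNA per cell.

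MMPs are zinc-dependent enzymes that cut extracellular matrix, and most are secreted as inactive proenzymes. TIMPs bind the active site of MMPs and block it. In the brain, MMPs are known for their action on the basement membrane and the tight junctions of vessels, and in glioma for their part in invasion. The comparison of the groups asks how the transcripts of these enzymes and inhibitors stood a day after barrier opening.

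Mmp3, Mmp12, Mmp13, Mmp19, Mmp2, Mmp14 and Timp1 were at higher mean levels with UMBO, by 2.18-fold for Mmp14 and up to 18.4-fold for Mmp3. Mmp9, Timp2 and Timp3 differed little, with ratios of the group means of 1.25, 1.12 and 0.885. By the quasi-likelihood test of edgeR no member reached the adjusted threshold of 0.05, nor did any other gene (0% of 23592 genes tested). All 10 members had enough counts to be tested. The median log2 fold change of the members was 1.69, against 0.01 over all genes tested. On the higher side were 9 of the 10, Mmp9 and Timp2 included, and 50.9% of all genes tested. At an unadjusted p under 0.05 edgeR counted 5 members, all higher (Mmp2, Mmp3, Mmp12, Mmp13 and Mmp19). Of all genes 5.3% were counted as higher and 2.06% as lower in this way. The DESeq2 Wald test counted 6 members as higher at an unadjusted p under 0.05, against 8.11% of all genes, and 0 after adjustment, where it passed 0.123% of all genes as higher. Its lowest adjusted p for a member was 0.182, for Mmp12. The unadjusted counts of edgeR moved with single libraries, for the members as for all genes. They were 0 members and 1.15% of all genes without UMBO replicate 2, 0 and 0.838% without vehicle replicate 1, and 0 and 0.945% without vehicle replicate 3. They were 7 members and 9.36% of all genes without vehicle replicate 2, and 7 and 21.4% without UMBO replicate 1.

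For Mmp12, Mmp13 and Mmp19 (3 of the 10 members) the lower UMBO library exceeded the highest vehicle library, which was so for 11.5% of all genes tested. In none of the 10 did both lie below, against 11.4% of all genes. With a library left out, groups overlapped less often over all genes too. The 3 became 8 without vehicle replicate 2 (30.8% of all genes), 7 without UMBO replicate 1 (42.5%) and 5 without UMBO replicate 2 (18.5%). With 3 libraries against 2, the smallest p of a 2-sided exact permutation test is 0.1. The exact permutation test gave p = 0.2 for each of Mmp12, Mmp13 and Mmp19 on the log2 scale.

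**Figure D1:**
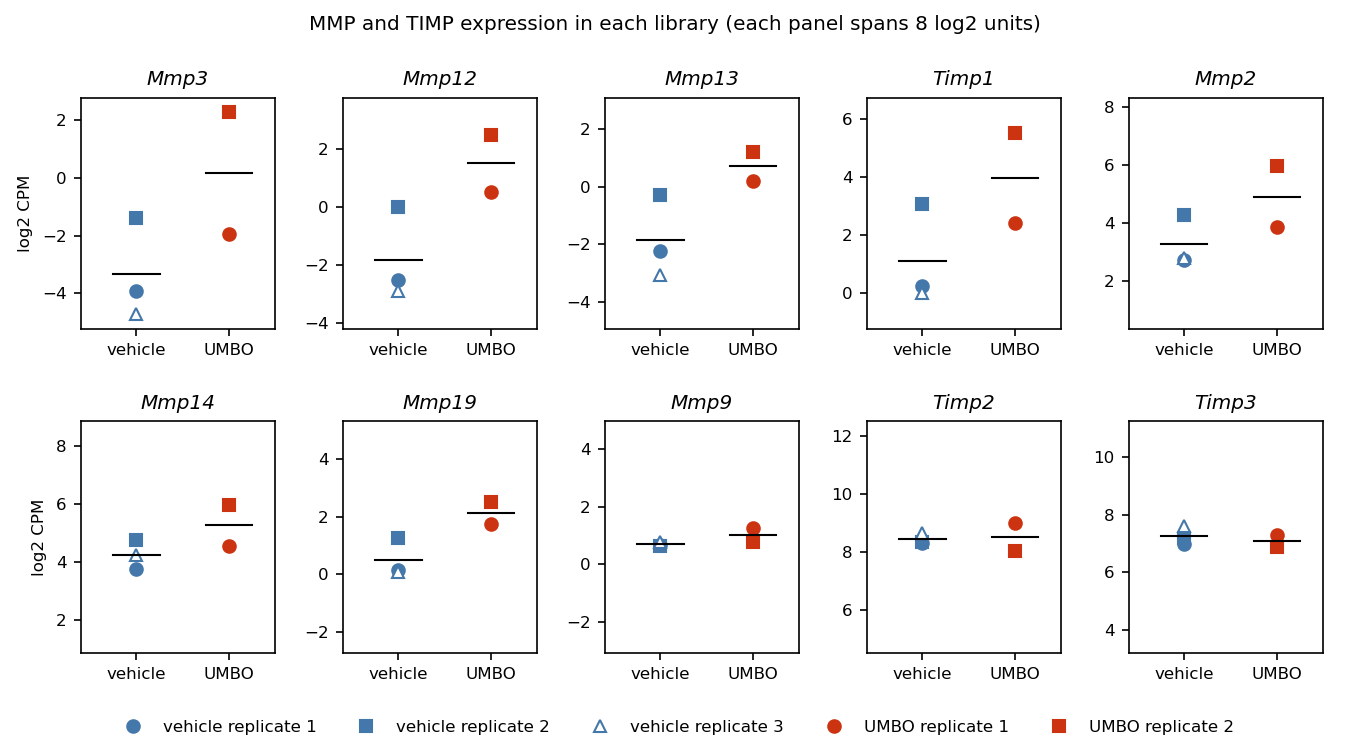
Log2 CPM (CPM, counts scaled to a common library size by TMM, with a prior count of 2) of the 10 members in 3 vehicle libraries (blue) and 2 UMBO libraries (red), with a line at each group mean and all panels at the same scale. UMBO replicate 2 is the highest library for 7 members, and UMBO replicate 1 lies near vehicle replicate 2 for most of them.

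Stromelysin-1 (Mmp3), which cleaves many matrix proteins and activates other proMMPs, varied most. It was at 0.0401, 0.356 and 0.0118 CPM in vehicle replicates 1 to 3, at 0.234 CPM in UMBO replicate 1 and at 4.76 CPM in UMBO replicate 2. Most of these levels rest on few reads, with 3, 24 and 1 counts for vehicle and 20 and 312 for UMBO. For the single read of vehicle replicate 3 the 95% Poisson interval ran from 0.0253 to 5.57 counts, which covers counting error only. Vehicle replicate 2 was above UMBO replicate 1, so the groups overlapped. The log2 fold change was 3.99 (standard error, SE, 1.55; adjusted p = 0.497, edgeR), and it was 0.72 without UMBO replicate 2.

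Macrophage metalloelastase (Mmp12), an elastin-degrading enzyme made mainly by macrophages, was at 0.147, 0.964 and 0.106 CPM with vehicle and at 1.42 and 5.62 CPM with UMBO. Both UMBO libraries were above all vehicle libraries, but UMBO replicate 1 was only 1.47-fold above vehicle replicate 2. The log2 fold change was 3.05 (SE 1.07; adjusted p = 0.497, edgeR), and 1.76 without UMBO replicate 2. Collagenase-3 (Mmp13), which cuts fibrillar collagen, showed the same order of libraries. Its levels were 0.187, 0.786 and 0.0945 CPM with vehicle and 1.12 and 2.29 CPM with UMBO. Its log2 fold change was 2.19 (SE 0.878; adjusted p = 0.497, edgeR), and 1.61 without UMBO replicate 2.

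These 3 genes lie in a cluster of 10 MMP genes on chromosome 9 (GRCm38, 7272514 to 7699585). Mmp13 spans 7272514 to 7283331, Mmp12 spans 7344381 to 7369499 and Mmp3 spans 7445822 to 7455975, all on the forward strand. The cluster's other 7 genes were near silent, with 53 reads over all libraries for Mmp8, 44 for Mmp10, 15 for Mmp27, 4 for Mmp20, 1 each for Mmp1a and Mmp1b and none for Mmp7. Mmp1b, on the opposite strand, overlaps 157 bases of Mmp12 exon.

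Inducible MMP genes are known for a site for AP-1, the Fos and Jun transcription factor complex, close to the start of transcription. RefSeq promoter windows (GRCm38.p6) were found for 7 of the members, with 2 starts for Mmp12, and the 250 bases before each start were searched for TGANTCA, which reads the same on both strands. The motif was in 3 of these 8 windows and in 6.75% of all 32851 windows of the table. The 3 windows are those of Mmp3, Mmp12 (its downstream start) and Mmp13. They are shown from 20 bases before the motif to the last base before the start, with the motif in capitals:
Mmp13, chr9:7272459-7272513, forward strand: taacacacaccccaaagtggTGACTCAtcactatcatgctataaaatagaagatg
Mmp12, chr9:7347310-7347373, forward strand: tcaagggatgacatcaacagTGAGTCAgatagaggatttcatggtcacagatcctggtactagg
Mmp3, chr9:7445756-7445821, forward strand: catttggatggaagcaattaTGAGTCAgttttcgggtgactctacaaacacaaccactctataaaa
The motif began 35 bases before the start in Mmp13, 44 in Mmp12 and 46 in Mmp3. No match was found in the windows of Mmp14, Timp1, Timp2, Timp3 or the upstream start of Mmp12. Mmp2, Mmp9 and Mmp19 had no window and were not searched. Between the lowest and highest library, log2 CPM spanned 6.97 for Mmp3, 5.41 for Mmp12 and 4.26 for Mmp13. For Timp1, without a match, it spanned 5.53. A match describes these letters and does not show that a factor bound there.

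The gelatinases Mmp2 and Mmp9 both digest type IV collagen of basement membranes, and their transcripts behaved differently. Mmp2 (chromosome 8, 92827291 to 92853420) was at 6.57, 19.1 and 6.92 CPM with vehicle and at 14.4 and 62.1 CPM with UMBO. UMBO replicate 1 lay below vehicle replicate 2, and UMBO replicate 2 was 4.31-fold above UMBO replicate 1. The log2 fold change was 1.81 (SE 0.725; adjusted p = 0.497, edgeR), and it was 0.40 without UMBO replicate 2. Mmp9 (chromosome 2, 164940780 to 164955850), the gelatinase that neutrophils store, was at 1.58, 1.54 and 1.70 CPM with vehicle (mean 1.61 ± 0.083, SD, n = 3), and at 2.35 and 1.68 CPM in UMBO replicates 1 and 2. It was the only member whose highest level was in UMBO replicate 1 while UMBO replicate 2 lay inside the vehicle range of 1.54 to 1.70 CPM. Its log2 fold change was 0.32 (SE 0.307; adjusted p = 0.581, edgeR).

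Mmp14 encodes a membrane-anchored MMP that, together with TIMP2, activates proMMP2 at the cell surface. It was at 13.5, 26.8 and 19.0 CPM with vehicle and at 23.6 and 62.8 CPM with UMBO, so that only UMBO replicate 2 was outside the vehicle range. The log2 fold change was 1.13 (SE 0.466; adjusted p = 0.497, edgeR), and 0.26 without UMBO replicate 2. Mmp19, a secreted enzyme that cuts basement membrane proteins, was at 1.08, 2.39 and 1.04 CPM with vehicle and at 3.33 and 5.68 CPM with UMBO. Of the 7 MMPs it depended least on one UMBO library among those higher with UMBO by over 2-fold, with a log2 fold change of 1.57 (SE 0.486; adjusted p = 0.497, edgeR), 1.14 without UMBO replicate 2 and 1.87 without UMBO replicate 1. Exons of Mmp19 overlap those of Tmem198b on the opposite strand over 789 bases. Tmem198b had 707 to 918 counts with vehicle and 1253 and 1158 with UMBO, against 81 to 161 and 285 and 372 for Mmp19. Whether the counting used strand is not given in the sources used here, so the Mmp19 counts are uncertain.

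The inhibitors differed from one another. Timp1, an inducible secreted inhibitor with a high affinity for proMMP9, was at 1.15, 8.46 and 0.969 CPM with vehicle, at 5.35 CPM in UMBO replicate 1 and at 46.0 CPM in UMBO replicate 2. The groups overlapped, since UMBO replicate 1 was at 0.632 times the level of vehicle replicate 2. The log2 fold change was 2.86 (SE 1.23; adjusted p = 0.497, edgeR), and it was 0.60 without UMBO replicate 2. Timp2, which inhibits MMP2 and also helps to activate it, was at 315, 321 and 404 CPM with vehicle. With UMBO it was the highest of all libraries in replicate 1, at 517 CPM, and the lowest in replicate 2, at 262 CPM. The log2 fold change of 0.17 (SE 0.339; adjusted p = 0.798, edgeR) turned to -0.43 without UMBO replicate 1.

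Timp3, which binds to the matrix and also inhibits ADAM proteases, averaged 155 ± 33.3 CPM (SD, n = 3) over the vehicle mice, and UMBO replicates 1 and 2 were at 158 and 117 CPM. Its log2 fold change was -0.18 (SE 0.262; adjusted p = 0.719, edgeR), and it was 0.03 without UMBO replicate 2. Exons of Timp3 overlap 1733 bases of Syn3, a neuronal gene on the opposite strand, which had 375 to 987 counts with vehicle and 562 and 144 with UMBO. Timp3 itself had 7637 to 16287 counts.

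**Figure D2:**
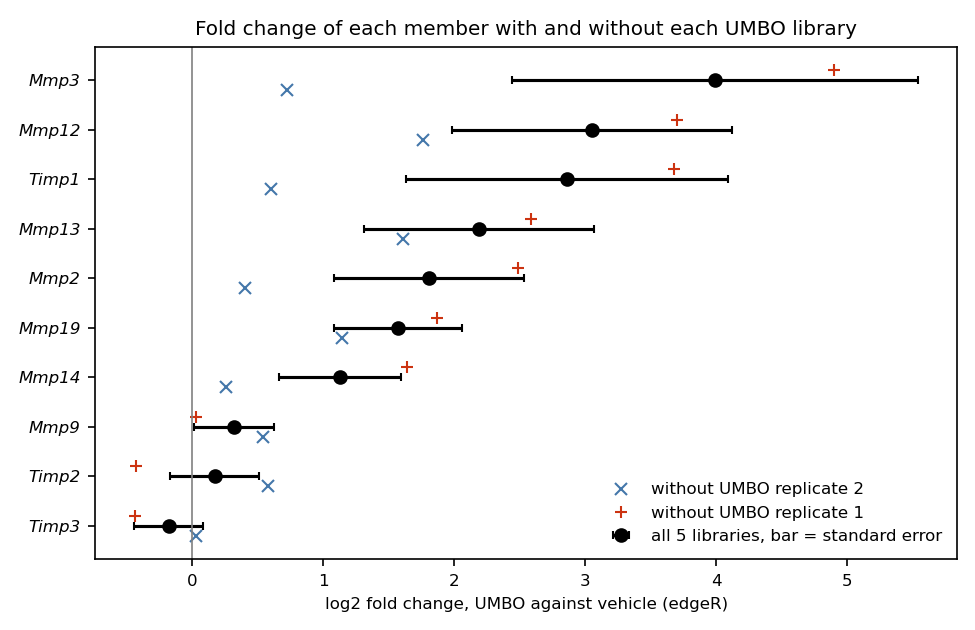
Log2 fold change of each member, UMBO against vehicle, from edgeR with all 5 libraries (black, bar of 1 standard error), without UMBO replicate 2 (blue cross) and without UMBO replicate 1 (red plus). Without UMBO replicate 2 the values of Mmp3, Timp1, Mmp2 and Mmp14 drop to 0.72, 0.60, 0.40 and 0.26, while Mmp12, Mmp13 and Mmp19 stay at 1.76, 1.61 and 1.14.

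Much of the variation of the members lay between mice of the same group. For the 7 members higher with UMBO by over 2-fold, vehicle replicate 2 was the highest vehicle library and UMBO replicate 2 the highest of all, an order that 31.3% of all genes tested shared (an order noticed after the values were seen). Vehicle replicate 2 stood above the mean of the other vehicle libraries by 1.65-fold for Mmp14, 7.61-fold for Mmp12, 7.98-fold for Timp1 and 13.7-fold for Mmp3. As a median over the 7 MMPs, log2 CPM minus its vehicle mean was -0.50, 1.00 and -0.46 for vehicle replicates 1 to 3, 1.24 for UMBO replicate 1 and 2.7 for the other UMBO library. Thus 1 vehicle mouse and 1 UMBO mouse were close to each other, and the other UMBO mouse stood apart. When UMBO replicate 1 was left out, edgeR passed 6 members as higher at an adjusted p under 0.05 (all of the 7 except Mmp13), against 10.1% of all genes tested. In that fit a single UMBO library is assumed to vary like the vehicle libraries. The median log2 fold change of the 10 members was 2.18 in it, and 0.59 without UMBO replicate 2.

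Levels of different genes were compared per length, as CPM per kb of exon. Timp2 was the most abundant member in every library, at 67.2 to 133 CPM per kb, and Mmp14 and Mmp2 together made up 77.8% to 86.3% of the summed MMP level. The least abundant were Mmp12, Mmp3 and Mmp13 in each vehicle library and in UMBO replicate 1, at 0.00656 to 0.42 CPM per kb. In UMBO replicate 2 the order differed. Timp1 at 51.8 CPM per kb and Mmp2 at 18.4 came next after Timp2 there, both above Timp3 at 14.3, and Mmp9 was last at 0.475. The share of Timp1 in the summed TIMP level was 0.849% to 8.66% with vehicle, and with UMBO it was 3.81% in replicate 1 and 38.9% in replicate 2. The summed TIMP level was 19.3, 9.23 and 21.2 times the summed MMP level in vehicle replicates 1 to 3, and 14.9 and 3.78 times in UMBO replicates 1 and 2. Transcripts of these 3 inhibitors thus outnumbered those of the 7 enzymes per length in all 5 libraries, by least in UMBO replicate 2. The sums leave out the family's other genes. Of those, Mmp17 alone was at 197, 131 and 118 CPM with vehicle and 156 and 87.5 CPM with UMBO. The 7 MMPs summed to 23.1, 52.0 and 28.9 CPM with vehicle and 46.5 and 145 CPM with UMBO.

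**Figure D3:**
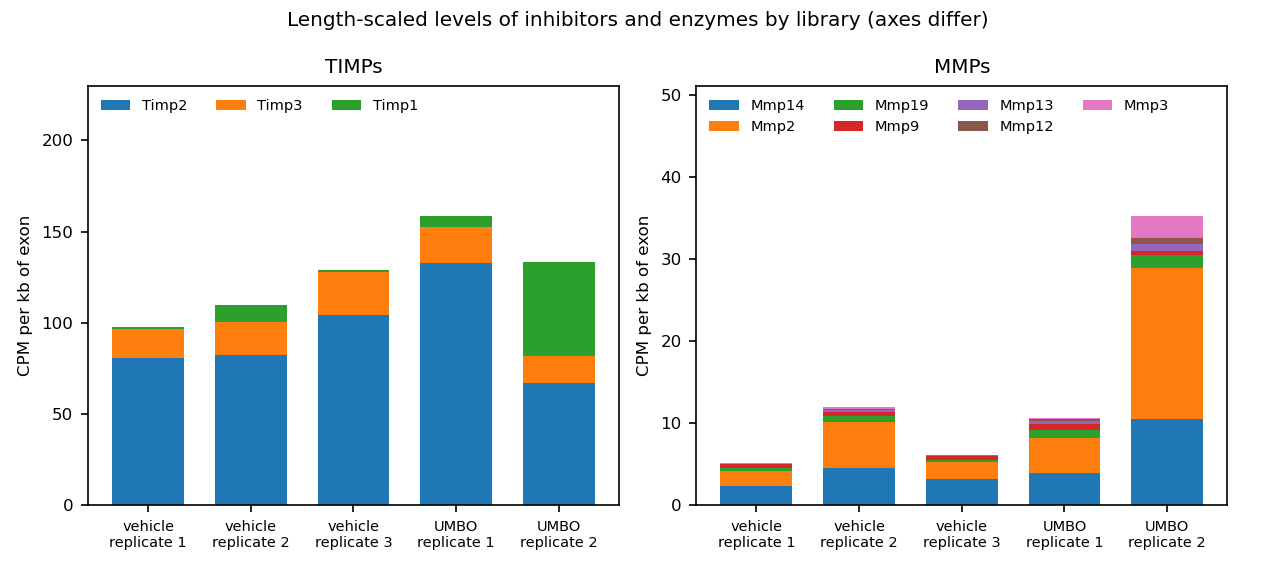
Levels in CPM per kb of exon of the 3 TIMPs (left) and the 7 MMPs (right), stacked by gene, in each library; the axes start at 0 and differ in scale. UMBO replicate 2 holds the highest summed MMP level (35.3) and the largest part of Timp1 (51.8).

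Enzymes were also set against an inhibitor within each library, as the difference of their log2 CPM, which does not depend on the scaling between libraries. Over 8 pairs, 0 passed the 2-sided exact permutation test, whose smallest possible p is 0.1, and every p adjusted over the pairs was at least 0.533. The Mmp9 to Timp1 log2 ratio was 0.45, -2.43 and 0.80 with vehicle and -1.18 and -4.75 with UMBO. Timp1 thus exceeded Mmp9 in CPM, which takes no account of length, in both UMBO libraries and in vehicle replicate 2. Per kb of exon, Timp1 was above Mmp9 in all 5 libraries. It was at 1.3 against 0.446 CPM per kb in vehicle replicate 1 and 1.09 against 0.481 in vehicle replicate 3. Mmp12 and Timp1 kept close together, with log2 ratios of -2.76, -3.10 and -2.91 with vehicle and -1.90 and -3.03 with UMBO. For Mmp2 and Timp2 the log2 ratio was -5.17 ± 0.97 (SD, n = 3) with vehicle, -5.16 in UMBO replicate 1 and -2.08 in UMBO replicate 2. In 1 pair, Mmp19 and Timp3, both UMBO libraries (-5.56 and -4.35) were above every vehicle library (-6.85, -5.92 and -7.50), a difference of 1.80 (2-sided exact permutation test, p = 0.2).

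Some lists of marker genes had their highest sum in UMBO replicate 2, where most of the MMPs were highest, and several others had their lowest sum there. The summed CPM of 8 macrophage and microglia markers was 215 to 521 with vehicle and 546 and 1232 in UMBO replicates 1 and 2. For 6 monocyte markers it was 5.50 to 47.0 with vehicle and 22.0 and 127 with UMBO. For 10 proliferation genes it was 31.9 to 106 with vehicle and 111 and 478 with UMBO. In each of these lists all genes had reads in every library and all were on the higher side (50.9% of all genes tested). By these sums vehicle replicate 2 was the highest vehicle library, as for Mmp12 and Timp1 and for 39.3% of all genes tested. Arg1 alone made up 30.2 of the 47.0 CPM of the monocyte sum there. Among the vehicle libraries F13a1 was highest in replicate 3 instead, at 4.61 CPM against 3.44 in replicate 2. Neutrophil markers were close to the limit of detection, at 0.615 to 2.11 CPM for 7 genes with vehicle and 1.18 and 5.79 with UMBO, and Ly6g was without a read in at least 1 library. Of the structural cell types, 7 endothelial markers summed to 118 to 163 CPM with vehicle and 186 and 215 with UMBO, and 6 fibroblast markers to 69.2 to 104 and to 166 and 156. Both UMBO libraries were above all of vehicle for 4 of the 7 endothelial and 4 of the 6 fibroblast genes (11.5% of all genes tested). Fibroblast Igf2 lay below instead, at 2.06, 2.14 and 4.28 CPM with vehicle and 1.61 and 0.107 CPM with UMBO. Endothelial Tek in UMBO replicate 2 (9.5 CPM) was below every vehicle library (10.5 to 15.8). The 7 mural markers summed to 198 to 249 CPM and to 295 and 224. Neuronal markers had reads in all libraries, which were made from the right hemisphere. Their sum was lowest in UMBO replicate 2, at 2365 CPM for 6 genes, with 4815 in UMBO replicate 1 and 4578 to 7281 with vehicle. Astrocyte markers (1431 CPM for 5 genes, against 3689 in UMBO replicate 1 and 2709 to 4103 with vehicle) and choroid plexus markers (488 CPM for 5 genes, against 844 and 796 to 826) were also lowest there, as were oligodendrocyte markers (4848 CPM for 5 genes, against 5709 and 5384 to 5483). Such sums follow their most abundant genes. Aldh1l1, of astrocytes, was highest in UMBO replicate 2, at 89.1 CPM against 61.6 to 76.5 with vehicle. Neuronal Tubb3 (300 CPM) and oligodendrocyte Mag (225) and Mog (67.3) were inside the vehicle range there. The other genes of these lists were lowest in that library. The part of these cell types in the MMP and TIMP values was not tested.

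**Figure D4:**
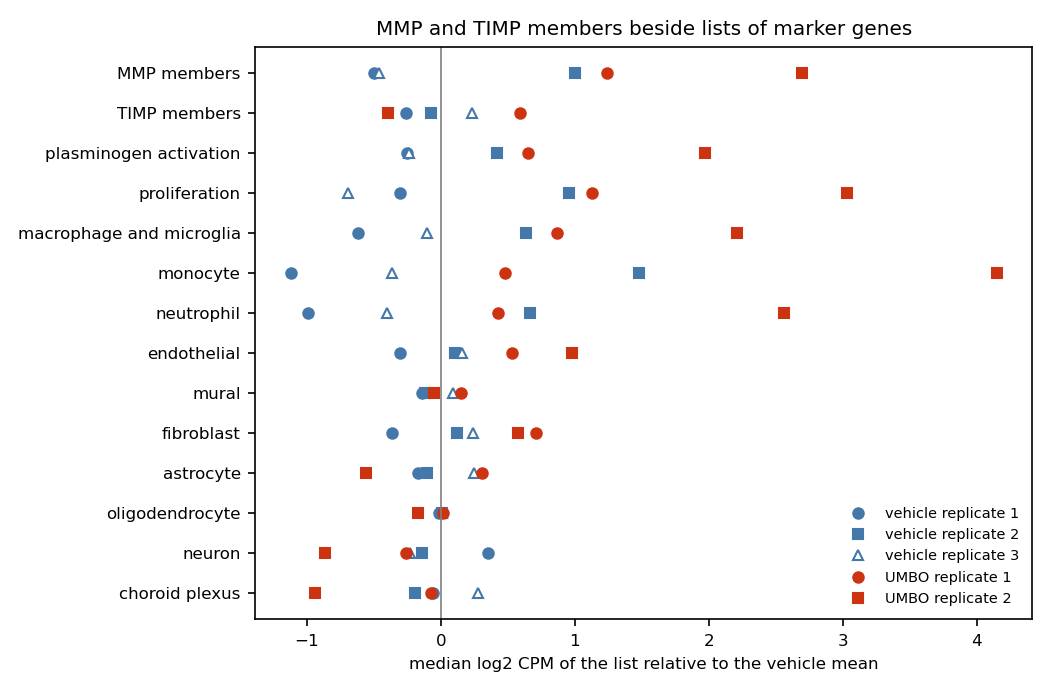
Median log2 CPM relative to the vehicle mean, in each library, of the MMP and TIMP members, 10 plasminogen activation genes and 11 lists of marker genes. The MMP members (2.7 in UMBO replicate 2), proliferation (3.03) and macrophage and microglia markers (2.21) are highest in UMBO replicate 2 and, among the vehicle libraries, in replicate 2. The median of the 3 TIMP members (-0.39 in UMBO replicate 2) does not follow this order, though Timp1 by itself does.

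Of the family's other genes, 11 of 17 (10 MMPs and Timp4) could be tested, with 7 higher and 4 lower and a median log2 fold change of 0.26 (0.04 without UMBO replicate 1). In edgeR 0 passed the adjusted threshold or an unadjusted p under 0.05, where 5.3% of all genes were higher and 2.06% lower. The 3 with the smallest p were Mmp15, Mmp11 and Mmp10. Mmp15, a membrane-type MMP, was at 32.9, 41.2 and 36.8 CPM with vehicle and 41.7 and 67.1 CPM with UMBO (log2 fold change 0.55, SE 0.243). Mmp11 (stromelysin-3) had a log2 fold change of 0.62 (SE 0.366), and Mmp10 (stromelysin-2), with at most 24 reads in a library, one of 1.51 (SE 1.18). Without UMBO replicate 2 these were 0.17 for Mmp15, 0.24 for Mmp11 and 0.33 for Mmp10. Mmp7 had no read in any library.

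Plasmin activates several proMMPs. Of 10 genes around its activation 8 were higher and 2 lower, with a median log2 fold change of 1.29 (0.49 without UMBO replicate 2), against 0.01 over all genes. In 2 of them both UMBO libraries lay above all of vehicle (11.5% of all genes tested) and in 2 below (11.4%). In edgeR 5 had an unadjusted p under 0.05, all higher (5.3% of all genes), and 0 an adjusted one. Plau (urokinase, which converts plasminogen to plasmin) was at 3.38, 6.20 and 3.06 CPM with vehicle and 6.59 and 22.8 CPM with UMBO. Its log2 fold change was 1.79 (SE 0.577), and 0.64 without UMBO replicate 2. Anxa2 and S100a10, whose proteins form a cell surface receptor for plasminogen, had log2 fold changes of 1.98 (SE 0.717) and 1.34 (SE 0.472), which were 0.58 and 0.34 without UMBO replicate 2.

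Among 9 other genes known to control MMPs, 7 were higher and 2 lower, with a median log2 fold change of 0.53 (0.09 without UMBO replicate 2). In edgeR 2 had an unadjusted p under 0.05, both higher (5.3% of all genes tested), and 0 passed the adjusted threshold. A2m (alpha-2-macroglobulin, a broad protease trap) was at 10.9, 15.7 and 23.2 CPM with vehicle and 31.7 and 47.2 CPM with UMBO, with a log2 fold change of 1.25 (SE 0.353). Cd44, a hyaluronan receptor that docks MMP9 and MMP14, had a log2 fold change of 1.81 (SE 0.548), and Thbs1 one of 1.11 (SE 0.543). Both UMBO libraries lay above all of vehicle for 5 of the 9 genes, A2m and Cd44 among them (11.5% of all genes tested). Without UMBO replicate 2 the log2 fold changes of A2m and Cd44 were 0.93 and 0.98, whereas that of Thbs1 was -0.12.

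The ADAM and ADAMTS proteases, relatives of the MMPs, were evenly divided, with 8 higher and 7 lower among the 15 tested of 16 and a median log2 fold change of 0.21. In edgeR 4 had an unadjusted p under 0.05, all higher (5.3% of all genes tested), and 0 passed after adjustment. Adamts9 averaged 5.99 ± 1.63 CPM (SD, n = 3) over the vehicle mice against 9.96 and 11.0 CPM with UMBO, a log2 fold change of 0.80 (SE 0.285) that was 0.73 without UMBO replicate 2. Adamts1 and Adam8 had log2 fold changes of 1.30 (SE 0.510) and 1.47 (SE 0.567), which were 0.20 and 0.19 without it.

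Known MMP substrates of the vessel wall were examined as 15 genes of the basement membrane and of tight junctions. Of these 11 were higher and 4 lower, with a median log2 fold change of 0.38 that turned to -0.04 without UMBO replicate 1. In edgeR 4 had an unadjusted p under 0.05, all higher (5.3% of all genes tested), and 0 passed the adjusted threshold. Col4a1, a chain of the type IV collagen that gelatinases digest, was at 53.8, 56.5 and 69.4 CPM with vehicle and 112 and 99.8 CPM with UMBO. Its log2 fold change of 0.82 (SE 0.187) did not rest on UMBO replicate 2, being 0.91 without it. Cldn5 (claudin-5, of endothelial tight junctions) was at 15.8, 29.4 and 19.6 CPM with vehicle and 38.9 and 57.1 CPM with UMBO, a log2 fold change of 1.15 (SE 0.315). Lama4 had one of 0.94 (SE 0.299). For these 3 genes, which were picked by their small p, the groups did not overlap. In the whole list both UMBO libraries lay above all of vehicle for 6 of the 15 genes (11.5% of all genes tested). The summed endothelial markers given above did not overlap either. Ocln and Tjp1 had log2 fold changes of 0.01 (SE 0.301) and -0.29 (SE 0.298).

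In the brain matrix list of 7 genes 4 were higher and 3 lower, with a median log2 fold change of 0.02 that turned to -0.28 without UMBO replicate 1. In edgeR 2 had an unadjusted p under 0.05, both higher (5.3% of all genes tested), and 0 passed the adjusted threshold. Spp1 (osteopontin, a secreted matrix protein that MMPs cleave) was at 9.24, 17.9 and 17.8 CPM with vehicle and 33.9 and 237 CPM with UMBO. Its log2 fold change was 3.17 (SE 0.776; adjusted p = 0.497, edgeR), and 1.18 without UMBO replicate 2. In DESeq2 it passed the threshold, with an adjusted p of 0.0134. Tnc (tenascin-C) had a log2 fold change of 1.01 (SE 0.310) and Acan (aggrecan) one of -0.48 (SE 0.400).

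For the 7 members whose log2 CPM spanned more than 2 across the libraries, the genes with the most similar pattern were found by the root-mean-square difference of centered log2 CPM over 5 libraries. With so few libraries many genes lie close, and the values are a description. Closest to Timp1 were Fosl1 (0.18), which encodes the AP-1 subunit FRA-1, Gdf15 (0.22) and Trib3 (0.24). Fosl1 was at 0.107, 0.935 and 0.130 CPM with vehicle and 0.667 and 6.41 CPM with UMBO. Gdf15 was also closest to Mmp12 (0.33), followed by Gzmc (0.37) and Chil3 (0.40), and the genes closest to Mmp3 were A130071D04Rik (0.38), Gdf15 (0.44) and Cdkn2a (0.49). Mmp13 was closest to Atp6v0d2 (0.24), an osteoclast and macrophage proton pump subunit, Gm13312 (0.31) and Gm14139 (0.32). Mmp2 was closest to Rps18-ps3 (0.05), Tagln2 (0.06) and Clic1 (0.06). Sdf2l1, CT485613.4 and BC035044 (0.05 each) were closest to Mmp14, and Col3a1 (0.12), Ncr1 (0.12) and Gm13657 (0.13) to Mmp19. Within the members, Mmp14 and Mmp19 were nearest to each other (0.43), as were Mmp12 and Timp1 (0.44).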

How the data were processed

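Right hemispheres of 5 GL261-bearing mice were profiled by bulk RNA sequencing (3 vehicle, 2 UMBO; groups and replicate numbers from the labels). Any further mice of the study were not analysed here. Raw, unnormalized counts per Ensembl gene were deposited by the authors, who aligned to GRCm38 using STAR 2.7.2a; annotation release and strand setting are not given in the sources used here. Symbols, positions and exon lengths came from GENCODE M21 (55394 of 55573 genes had a symbol). Genes without one took at most 0.101% of a library.

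Counts were scaled by TMM, filtered with filterByExpr (23592 genes) and compared in edgeR 4.0.16 under R 4.3.3 by quasi-likelihood F-test. P-values were adjusted over all genes tested (Benjamini-Hochberg). Fold changes and log2 CPM used a prior count of 2; standard errors came from the F statistic. DESeq2 1.42.0 was an alternative. Scripts were tested on simulated data. The edgeR and DESeq2 p-values set the group difference against the spread between these mice, estimated with information shared across genes. Chi-square values per gene between libraries were at least 58.6, so no library was a copy.

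The members and lists were chosen with earlier results of these data known. Named outside the members are the 3 genes per list with the smallest edgeR p, the 3 nearest in pattern to each wide-ranging member, and MMP genes without reads. Others were named after their values were seen. These are Ocln, Tjp1, Mmp17, single cell type markers and the genes overlapping members or in the chromosome 9 cluster. A planned search for protein motifs was not run.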

Additional observations from a re-analysis of the deposited data

How the results depend on the processing

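The members past the adjusted threshold numbered 0 with library size only, size factors of DESeq2, no filter on low counts, the DESeq2 Wald test and a threshold of 0.10. With each library left out in turn they ranged from 0 to 6 (6 without UMBO replicate 1). With the replicate number as a block there were 7 (the 7 members higher by over 2-fold), while 6.05% of all genes passed as higher. Nothing in the labels says what a replicate number marks. Deviations from the group means correlated at 0.45 and 0.76 for the 2 shared numbers. They correlated at 0.52 for vehicle replicate 3 with UMBO replicate 1, which share no number. With 2 UMBO libraries, the deviations of UMBO replicate 1 are those of UMBO replicate 2 with the sign changed. The replicate block was therefore not taken as a pairing. The members with both UMBO libraries above every vehicle library ranged from 3 to 8 with 1 library left out, and were 4 with library size only (Mmp9 added), where the all-gene median log2 fold change was 0.12 in place of 0.01. The members' median log2 fold change ranged from 0.59 (without UMBO replicate 2) to 2.32 (without vehicle replicate 2).

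Of 110 alternative values of the members' log2 fold changes, 3 reversed, for Timp2 (-0.43 without UMBO replicate 1; 0.58 without UMBO replicate 2) and Timp3, which ranged from -0.44 to 0.03 with 1 library left out (0.00 without vehicle replicate 3). Of the log2 ratios, the difference for Mmp12 to Timp1 ranged from -0.11 to 1.03, for Mmp13 to Timp1 from -1.36 to 0.74 and for Mmp14 to Timp2 from -0.27 to 2.12. The cause was not tested. Counts were lowest for Mmp3, Mmp12 and Mmp13, with as few as 1, 9 and 8 reads in a vehicle library. For Mmp3 the spread between vehicle mice still exceeded counting error, with 95% Poisson intervals of 15.4 to 35.7 reads in vehicle replicate 2 and 0.619 to 8.77 in vehicle replicate 1.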

Other observations

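The following genes were chosen after their values were seen. Of the chromosome 9 cluster, Mmp8 and Mmp27 had too few reads for the test and are given as counts. Mmp8, the collagenase that neutrophils store, had 1, 1 and 2 reads in vehicle replicates 1 to 3 and 10 and 39 reads in UMBO replicates 1 and 2. Mmp27 had 1, 0 and 1 reads with vehicle and 3 and 10 with UMBO. The neutrophil marker S100a8 was at 0.187, 0.252 and 0.0827 CPM with vehicle and 0.222 and 1.6 CPM with UMBO, so that its groups overlapped. The part of neutrophils in the Mmp8 reads was not tested.

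Serpini1 (neuroserpin, a neuronal inhibitor of tissue plasminogen activator) was at 279, 175 and 174 CPM with vehicle and 165 and 68.7 CPM with UMBO, with a log2 fold change of -0.84 (SE 0.439; adjusted p = 0.497, edgeR), and -0.34 without UMBO replicate 2. The membrane-type MMP gene Mmp24 was at 42.1, 32.1 and 39.5 CPM with vehicle and 37.4 and 15.1 CPM with UMBO. Summed neuronal markers were also lowest in UMBO replicate 2 (2365 CPM), and their part in these values was not tested.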
